A study of Homo sapiens with 6 samples.

Results

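The 10 genes described here are the 4 inhibitor of DNA binding genes ID1, ID2, ID3 and ID4 and 6 genes of the bone morphogenetic protein (BMP) pathway: the ligand gene BMP4, the receptor genes BMPR1A and BMPR2, the inhibitory SMAD genes SMAD6 and SMAD7, and SMAD9, which encodes a signal-carrying SMAD. They were taken by symbol from 28265 genes, and all 10 passed the low-count filter. They were selected with their values in this same contrast already known, so those values are given as a description without a test. RNA came from LN229, an established human glioblastoma cell line, in 6 libraries: 3 with the genotype label WT and 3 labelled TRIM25 knockdown. TRIM25 encodes an E3 ubiquitin ligase, and the series design gives the knockdown as shTRIM25, a short hairpin RNA. The WT libraries have NC in their titles, which is not explained, and no label says whether the WT cells carried a hairpin, whether the knockdown cells were 1 clone, or whether the 3 libraries of a group were separate cultures. If they were not, the spread used in the tests is technical.

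TRIM25 mRNA went against its label. Its mean CPM, the read count scaled by library size, was 35.6 ± 0.243 in WT and 82.9 ± 4.84 in labelled knockdown (SD over n = 3 libraries each), and the groups did not overlap. Directions below are therefore those of the labelled groups and do not show what losing TRIM25 mRNA does. Library totals ranged from 11349865 to 16404725 counts. Of the 10 astrocyte and glioma markers checked, VIM, NES, CD44, S100B, SOX2 and FABP7 had mean levels between 107.9 and 3475 CPM in both groups. The others were lower. In WT and labelled knockdown, OLIG2 averaged 7.52 and 4.66 CPM and SLC1A3 6.13 and 6.47 CPM. SOX9 stood at 0.910 and 0.265 CPM and GFAP at 0.509 and 0.314 CPM. Among the myeloid, lymphoid and endothelial markers AIF1 had 0 counts in every library, and PTPRC, CD3E, PECAM1, CDH5 and CLDN5 averaged at most 0.326 CPM in both groups. CD14, CSF1R, KDR and VWF averaged between 0.435 and 1.72 CPM, and CD68, a lysosomal gene used as a macrophage marker, stood at 44.9 ± 1.09 CPM in WT and 63.3 ± 7.18 CPM in labelled knockdown (SD over n = 3 libraries each).

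BMPs are secreted dimers that bring together type I and type II receptor kinases. The activated type I receptor phosphorylates the SMAD proteins encoded by SMAD1, SMAD5 and SMAD9, which enter the nucleus with SMAD4 and switch on target genes. The ID genes are among the most direct of these targets. ID proteins have a helix-loop-helix domain without the DNA-binding basic region, so they pair with E proteins such as those of TCF3, TCF4 and TCF12 and keep them, and their tissue-specific partners, off DNA. SMAD6 and SMAD7 are also induced by the pathway and restrain it. In glioblastoma, ID proteins are known from work on stem-like cells, and BMPs as factors that push such cells towards an astrocytic state.

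The stretches just before the transcription starts of the 4 ID genes are shown because ID1, ID2 and ID3 had the widest gaps between the groups, with that of SMAD6, another textbook BMP target, for comparison. Each is the 250 bases before the RefSeq start, 5′ to 3′ on the gene's own strand, from the RefSeq table on build GRCh38.p14. The deposited counts are on hg19, so these positions belong to the RefSeq table and not to the counts. Capitals mark GGAGCC (a GC-rich sequence that SMAD1 and SMAD5 bind) and TATAAA (the TATA box), each on either strand, and GGCGCC, the palindromic core of BMP response elements, where present.
ID1 promoter, chr20:31605039-31605288, plus strand: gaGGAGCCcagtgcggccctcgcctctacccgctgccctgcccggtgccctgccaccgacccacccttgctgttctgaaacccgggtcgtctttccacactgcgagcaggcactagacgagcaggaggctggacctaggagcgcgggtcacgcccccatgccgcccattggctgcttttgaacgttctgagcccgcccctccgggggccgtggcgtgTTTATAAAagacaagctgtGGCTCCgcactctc
ID2 promoter, chr2:8681806-8682055, plus strand: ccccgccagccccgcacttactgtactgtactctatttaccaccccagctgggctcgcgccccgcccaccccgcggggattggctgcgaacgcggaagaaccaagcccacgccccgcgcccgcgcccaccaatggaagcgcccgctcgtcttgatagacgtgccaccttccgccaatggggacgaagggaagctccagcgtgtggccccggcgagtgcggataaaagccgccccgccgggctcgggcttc
ID3 promoter, chr1:23559502-23559751, minus strand: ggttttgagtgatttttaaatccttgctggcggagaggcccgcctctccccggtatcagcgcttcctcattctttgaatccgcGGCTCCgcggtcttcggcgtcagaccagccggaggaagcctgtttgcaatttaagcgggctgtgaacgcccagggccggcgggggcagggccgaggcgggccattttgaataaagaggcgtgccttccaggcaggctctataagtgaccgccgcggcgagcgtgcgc
ID4 promoter, chr6:19837120-19837369, plus strand: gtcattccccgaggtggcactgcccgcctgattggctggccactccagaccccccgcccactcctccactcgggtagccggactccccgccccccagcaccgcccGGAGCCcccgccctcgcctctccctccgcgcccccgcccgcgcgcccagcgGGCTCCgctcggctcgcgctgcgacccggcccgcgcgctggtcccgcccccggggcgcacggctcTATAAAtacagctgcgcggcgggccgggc
SMAD6 promoter, chr15:66701986-66702235, plus strand: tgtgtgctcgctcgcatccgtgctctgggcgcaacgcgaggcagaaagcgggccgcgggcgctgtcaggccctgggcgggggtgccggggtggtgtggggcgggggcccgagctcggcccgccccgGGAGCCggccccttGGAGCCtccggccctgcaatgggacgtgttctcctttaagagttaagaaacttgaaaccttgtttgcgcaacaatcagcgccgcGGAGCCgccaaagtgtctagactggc

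All 10 genes matched the RefSeq table by symbol, BMP4 and SMAD7 with 3 starts each, of which the most upstream was used. GGAGCC or its reverse complement GGCTCC was present 2 times before ID1, 1 time before ID3, 2 times before ID4, 3 times before SMAD6 and 0 times before ID2. In all, 6 of the 10 genes held it, against 30.6% of 35116 human promoter windows of this length. GGCGCC was found before BMP4 and BMPR2 only, 2 of 10 genes, against 16.4% of windows. TATAAA or TTTATA was found before ID1, ID4 and BMPR1A, 3 of 10 genes, against 10.7%. In ID1 the matches on the 2 strands overlap, starting 33 and 31 bases before the start. Other motifs were searched too. A GC-only motif was in 7 of 10 genes, against 42.6% of windows. The remaining motifs were in 5, 1 and 6 of 10 genes, against 38.0%, 21.2% and 61.8%. The counted member windows had a GC content from 47.2% to 79.2%. Members were counted by their most upstream window, while the shares cover all windows. Nothing is read from these counts. Matches of different motifs among the 3 named here do not overlap in the member windows. These are letter matches in a short window and say nothing about elements farther away.

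In CPM the groups did not overlap for 4 of the 10 genes, ID1 to ID4, with labelled knockdown lower, where this held for 19.0% of all 14315 tested genes. For 0 of the 10 did labelled knockdown lie wholly above WT, where 18.3% of tested genes did. In the fit over all tested genes 5 of the 10 had an adjusted p under 0.05, against 23.3% of all genes, 4 of them lower (ID1 to ID4), against 11.0%, and 1 higher (BMPR2), against 12.2%. Since the genes were selected on this contrast, these calls are no test of the 10 genes, and nothing is read from the counts.

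ID1, ID2 and ID3 mRNA was lower in every library labelled knockdown than in any WT library, ID2 by the largest factor (2.11-fold), and ID4 was slightly lower. In bulk RNA, fewer cells that express a gene and less of its RNA per cell cannot be told apart. For ID1, the best studied BMP target of the family, the levels were 109.3, 114.4 and 123.6 CPM in WT replicates 1 to 3 and 84.0, 71.5 and 66.5 CPM in labelled knockdown replicates 1 to 3. All 3 labelled knockdown libraries lay below all 3 WT libraries, and replicate 1 was the highest of the labelled knockdown group. The means were 115.8 ± 7.28 and 74.0 ± 9.04 CPM (SD, n = 3 each), a log2 fold change of -0.65 ± 0.08 (SE), or 1.57-fold lower.

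ID2, whose product is known for binding the retinoblastoma protein as well as E proteins, stood at 20.7, 22.1 and 23.9 CPM in WT replicates 1 to 3 and at 11.6, 9.63 and 10.4 CPM in labelled knockdown replicates 1 to 3. The groups did not overlap: the highest labelled knockdown library, replicate 1, lay far below the lowest WT library, also replicate 1. The log2 fold change was -1.08 ± 0.10 (SE). ID2 shares 38 bp of exon with the antisense gene ID2-AS1 on the opposite strand, and the strand setting of the counting is not given in the sources used here. ID2-AS1 had 57 counts in the 6 libraries together, against between 109 and 377 counts of ID2 in each library.

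ID3, which is often expressed together with ID1, stood at 68.0, 68.4 and 75.2 CPM in WT replicates 1 to 3 and at 49.0, 34.5 and 36.8 CPM in labelled knockdown replicates 1 to 3. Again the groups did not overlap, and labelled knockdown replicate 1 stood apart above the other 2. The log2 fold change was -0.82 ± 0.10 (SE), or 1.77-fold lower. ID4, the family member best known from neural progenitors, stood at 48.9, 51.6 and 49.8 CPM in WT replicates 1 to 3 and at 43.3, 43.0 and 43.6 CPM in labelled knockdown replicates 1 to 3. Its groups did not overlap either, with little spread within each, but the gap was the narrowest of the 4, at a log2 fold change of -0.21 ± 0.07 (SE), or 1.16-fold lower.

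**Figure D1:**
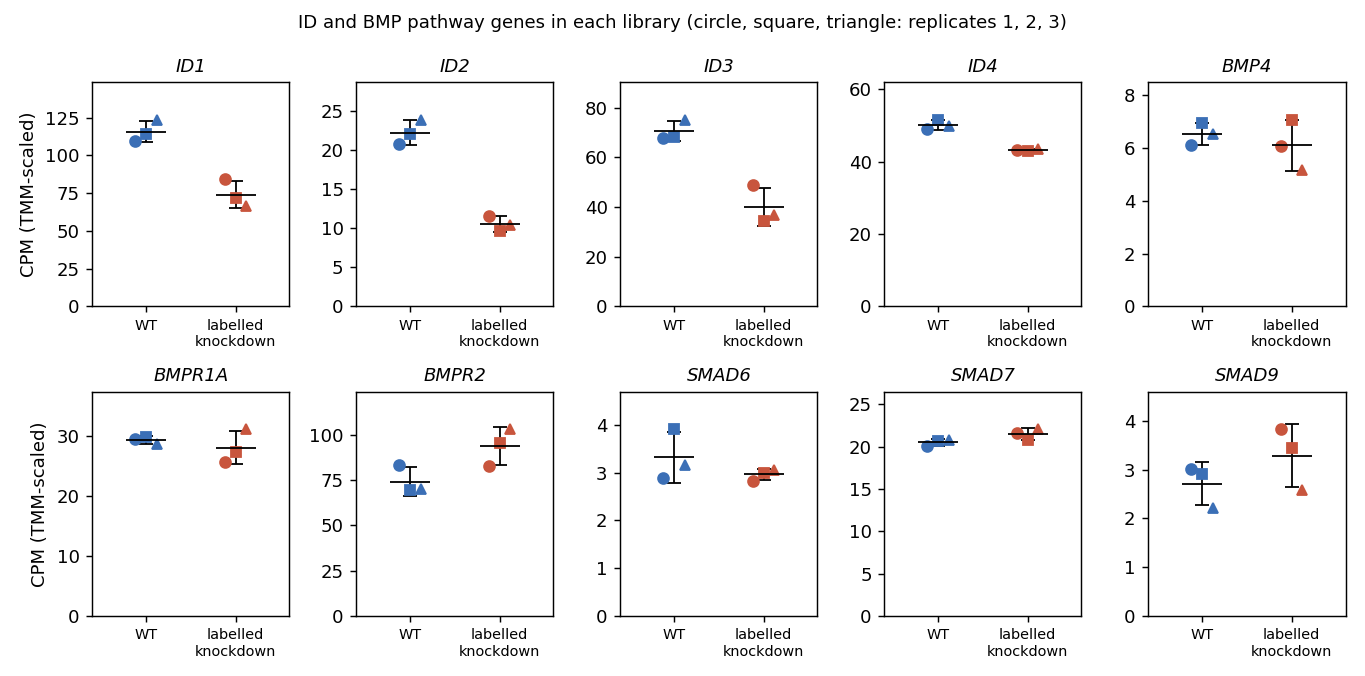
Level of each of the 10 genes in each library, in CPM (count scaled by library size) on axes that start at 0. Points are libraries (circle, square and triangle for replicates 1, 2 and 3), the long bar is the group mean and the whiskers 1 SD (n = 3). The 2 groups separate for ID1, ID2, ID3 and ID4 and overlap for the other 6 genes.

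The BMP pathway genes did not show this pattern: in all 6 the 2 groups overlapped in CPM. BMP4, the ligand gene, stood at 6.10, 6.96 and 6.52 CPM in WT replicates 1 to 3 and at 6.08, 7.07 and 5.15 CPM in labelled knockdown replicates 1 to 3. The highest and the lowest library both belonged to the labelled knockdown group, and the log2 fold change was -0.11 (from -0.42 to 0.19, 95% interval). BMPR1A, the gene of a type I receptor kinase, stood at 29.4, 29.9 and 28.7 CPM in WT replicates 1 to 3 and at 25.7, 27.4 and 31.2 CPM in labelled knockdown replicates 1 to 3. The WT values fell within the range of the labelled knockdown values, with a log2 fold change of -0.06 (from -0.23 to 0.12, 95% interval).

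BMPR2, the gene of the type II receptor that phosphorylates type I receptors, had a higher mean in labelled knockdown. It stood at 83.4, 69.5 and 70.0 CPM in WT replicates 1 to 3 and at 82.7, 95.5 and 103.3 CPM in labelled knockdown replicates 1 to 3. The overlap came from WT replicate 1 lying just above labelled knockdown replicate 1. The log2 fold change was 0.34 (from 0.16 to 0.52, 95% interval).

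The inhibitory SMAD genes also had overlapping groups. SMAD7, whose product blocks type I receptors and recruits ubiquitin ligases to them, stood at 20.1, 20.7 and 20.8 CPM in WT replicates 1 to 3 and at 21.7, 20.8 and 22.1 CPM in labelled knockdown replicates 1 to 3, with a log2 fold change of 0.07 (from -0.10 to 0.24, 95% interval). SMAD6, whose product competes with SMAD4 for activated SMAD1, was low, at 2.89, 3.92 and 3.16 CPM in WT replicates 1 to 3 and 2.83, 3.01 and 3.07 CPM in labelled knockdown replicates 1 to 3. With 34 to 54 counts per library its interval was wide, from -0.54 to 0.24 around -0.15 on the log2 scale. SMAD9 had 35 to 48 counts per library and stood at 3.02, 2.90 and 2.21 CPM in WT replicates 1 to 3 and at 3.83, 3.45 and 2.58 CPM in labelled knockdown replicates 1 to 3. Its log2 fold change was 0.25 (from -0.18 to 0.69, 95% interval), so at this depth a difference of the size seen for ID4 was not detectable for SMAD6 or SMAD9.

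Per length of transcript, the ID genes were the most abundant of the 10. In the authors' TPM, which scales counts by gene length and library, ID1 had a mean of 262.0 ± 11.6 in WT (SD, n = 3), ID3 205.4 ± 9.05, ID2 47.3 ± 2.45 and ID4 35.8 ± 0.808. BMPR1A followed at 22.5 ± 0.791 TPM, BMPR2 at 17.1 ± 2.19 and SMAD7 at 16.5 ± 0.0382. BMP4 had 7.01 ± 0.373 TPM, SMAD6 2.32 ± 0.348 and SMAD9 1.35 ± 0.237. In this order the ranges of BMPR2 and SMAD7 overlapped in WT, and every other neighbouring pair was separate. In the labelled knockdown libraries ID2 (23.2 ± 1.72 TPM) came below ID4 (32.1 ± 0.984 TPM), and the ranges of ID2, BMPR1A and BMPR2 overlapped. The summed TPM of the 4 ID genes was 538, 538 and 576 in WT replicates 1 to 3 and 390, 326 and 330 in labelled knockdown replicates 1 to 3. ID1 made up between 47.2% and 51.6% of that sum in all 6 libraries. The share of ID2 was 8.40% to 8.68% in WT and 6.35% to 7.10% in labelled knockdown libraries, and that of ID4 was 6.08% to 6.80% and 7.97% to 10.0%.

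**Figure D2:**
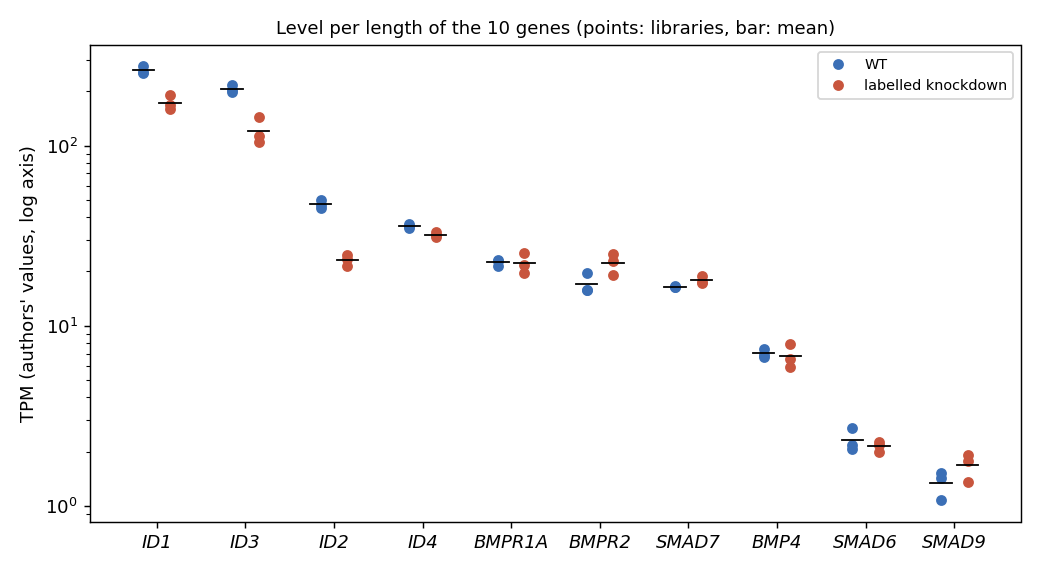
Level per length of the 10 genes in each library, in the authors' TPM on a log axis, ordered by the WT mean. Points are libraries and bars group means (n = 3). ID1 and ID3 lie between 104.5 and 275.3 TPM, and SMAD6 and SMAD9 between 1.08 and 2.72 TPM.

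Short genes tended to be lower and long genes higher in the labelled knockdown libraries, and the members span that range of lengths. Across the 14315 tested genes the log2 fold change had a Spearman's rho of 0.30 with gene length, a description across genes. Its rho with the GC content of the transcripts was -0.264, over the 13640 tested genes with a GC value. That GC content was 58.1% for ID1, 47.7% for ID2, 56.6% for ID3, 56.6% for SMAD7 and 38.7% for BMPR2. The parts of length and GC content were not separated. ID3, ID1 and ID2 have lengths of 950, 1222 and 1299 bp and BMPR2 one of 12068 bp, against a median of 3592 bp over tested genes. Libraries of the same group differed in this way too: rho of a gene's deviation from its group mean with length was 0.41, -0.116 and -0.359 in WT replicates 1 to 3 and -0.383, 0.07 and 0.379 in labelled knockdown replicates 1 to 3. ID1, ID2 and ID3 were highest within their groups in WT replicate 3 and labelled knockdown replicate 1, the libraries with the lowest rho. They were lowest among WT in replicate 1, which had the highest rho, but in the labelled knockdown group ID2 and ID3 were lowest in replicate 2, where rho was near 0, and only ID1 in replicate 3. With an offset that removes each library's smooth trend with length and GC content, the log2 fold changes were -0.51 ± 0.04 for ID1, -0.995 ± 0.0881 for ID2 and -0.66 ± 0.06 for ID3 (SE), so the ID1 to ID3 differences were smaller but of the same direction. The groups still did not overlap for ID1 to ID4. ID1 then stood at 109.2, 107.9 and 113.3 CPM in WT replicates 1 to 3 and at 80.6, 76.9 and 75.2 CPM in labelled knockdown replicates 1 to 3. ID4 kept a log2 fold change of -0.21. That of BMPR2 went from 0.34 to 0.15 (from 0.06 to 0.25, 95% interval), and that of SMAD7 from 0.07 to 0.15 (from 0.0011 to 0.30, 95% interval), and for both the groups then no longer overlapped, with labelled knockdown higher. The share of all tested genes whose groups do not overlap with the offset was not computed, so nothing is read from these separations.

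**Figure D3:**
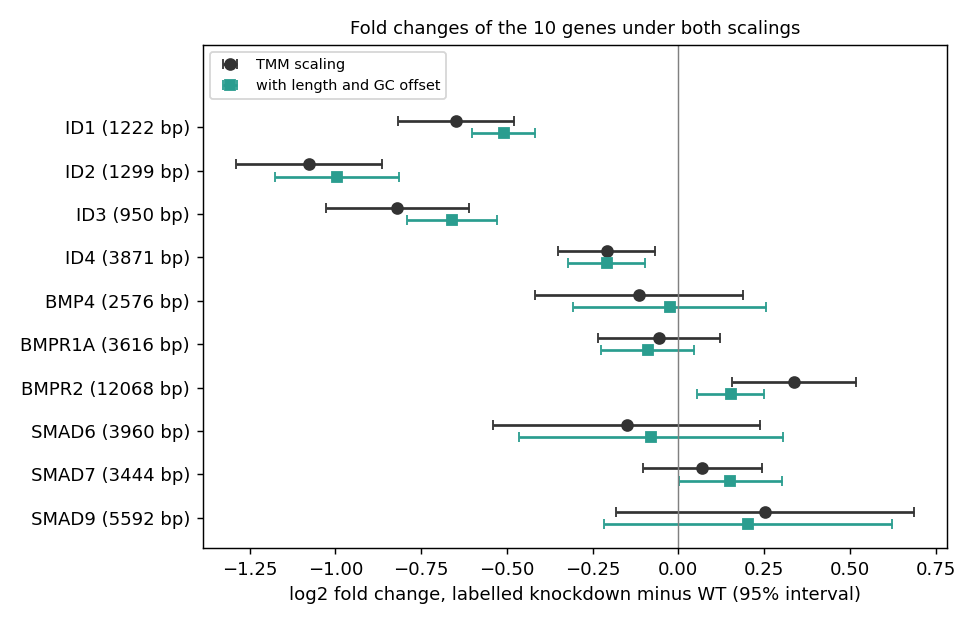
Log2 fold change of each of the 10 genes, labelled knockdown minus WT, with its 95% interval, with TMM scaling (dark circles) and with the length and GC offset (green squares). Gene lengths are given beside the names. ID1, ID2 and ID3 lie left of 0 under both, and BMPR2 moves from 0.34 to 0.15.

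The surrounding pathway was examined through 6 lists of other BMP genes, ordered by role, of which 85 genes were in the files and 54 were tested. A gene is called here when its edgeR quasi-likelihood p, adjusted by Benjamini-Hochberg over all tested genes, was under 0.05. In these lists 8 genes were called higher and 13 lower, 38.9% in all, and 33 did not pass. Over all tested genes 23.3% were called, 12.2% higher and 11.0% lower, and the counts of each list below are to be read against these shares. The lists were chosen with earlier results of these data known, so no excess over these shares is read as a result. The median log2 fold change of the 54 was -0.01, against -0.0038 over all tested genes. Of the 21 calls, 10 held in each of the 6 fits that left out 1 library. The share of all 3330 calls that held in these fits was not computed, so nothing is read from this count. Fits with the replicate number as a block are left out of the lost calls named below and are given at the end. Without WT replicates 1, 2 and 3 in turn 5, 4 and 6 genes were called higher and 9, 6 and 8 lower, and without labelled knockdown replicates 1, 2 and 3 in turn 10, 4 and 5 were called higher and 16, 6 and 8 lower. With the length and GC offset 13 were called higher and 12 lower. The calls over all tested genes also moved with the fit. They went from 3330 in the main fit to 4644 with the offset (2592 higher, 2052 lower). Without 1 library they ranged from 1826 (without WT replicate 2) to 4941 (without labelled knockdown replicate 1). The list counts of each fit are to be read against the calls of the same fit.

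Among the ligand genes BMP2, a close relative of BMP4, rose. It stood at 6.60, 8.56 and 8.61 CPM in WT replicates 1 to 3 and at 10.9, 14.1 and 13.0 CPM in labelled knockdown replicates 1 to 3, so the groups did not overlap (log2 fold change 0.68 ± 0.13 (SE), adjusted p in edgeR = 0.001174). Of the 5 ligand genes tested, 1 rose and 2 fell. AMH, the gene of anti-Müllerian hormone, fell by 0.41 on the log2 scale and GDF11 by 0.19. The AMH call was lost without WT replicate 2 or 3 or labelled knockdown replicate 2 or 3 (edgeR adjusted p from 0.0737 to 0.110), with DESeq2 (0.0651) and with the length and GC offset (0.0702), under which the log2 fold change was -0.23. The GDF11 call was lost without WT replicate 1, 2 or 3 or labelled knockdown replicate 2 (edgeR adjusted p from 0.0755 to 0.155). BMP7 had at most 4 counts in any library and was not tested.

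Most receptor genes did not pass. ACVR1, a type I receptor gene, had a log2 fold change of 0.03 (from -0.11 to 0.17, 95% interval), BMPR1B, another, one of 0.12 (-0.13 to 0.38), and the type II receptor gene ACVR2A one of -0.09 (-0.31 to 0.13). Of the 8 receptor and co-receptor genes tested, 1 rose and 1 fell, both of the repulsive guidance molecule family of BMP co-receptors. RGMA fell from 8.02 ± 0.889 to 5.36 ± 0.463 CPM (SD over n = 3 libraries each, with a log2 fold change of -0.60 ± 0.14 (SE), adjusted p in edgeR = 0.004865), and RGMB rose from 36.8 ± 1.03 to 44.5 ± 3.12 CPM. The RGMB call was lost without WT replicate 2 (edgeR adjusted p = 0.0524) or labelled knockdown replicate 2 (0.0664) or 3 (0.0510).

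The genes of the signal carriers did not pass either. SMAD5, the most abundant of them, stood at 150.8 ± 7.57 and 154.4 ± 15.5 CPM (SD, n = 3 each), with a 95% interval of the log2 fold change from -0.11 to 0.19. SMAD1 had a log2 fold change of -0.03 (from -0.25 to 0.19, 95% interval) and SMAD4, the common partner, one of 0.0021 (-0.14 to 0.15). Of 7 tested genes in this list, 2 rose and 1 fell. The histone acetyltransferase genes EP300 and CREBBP, whose products are SMAD coactivators, rose by 0.37 ± 0.09 and 0.37 ± 0.08 (SE) on the log2 scale (edgeR adjusted p = 0.006925 and 0.00325). Both are long, at 8779 and 10789 bp, and with the length and GC offset their log2 fold changes were 0.28 and 0.29. RUNX2, the osteoblast transcription factor gene that acts with SMADs, fell by 0.41 ± 0.09 (SE) on the log2 scale (edgeR adjusted p = 0.004861).

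Of 10 tested extracellular antagonists and modulators 1 rose and 2 fell. CHRDL1, which encodes a chordin-like BMP antagonist, rose 1.61-fold, from 28.1, 25.7 and 25.8 CPM in WT replicates 1 to 3 to 39.7, 45.5 and 43.2 CPM in labelled knockdown replicates 1 to 3 (edgeR adjusted p = 9.977e-06). Every labelled knockdown library was above every WT library. FST, the gene of the activin and BMP antagonist follistatin, fell from 23.1 ± 1.19 to 16.0 ± 0.910 CPM (SD over n = 3 libraries each, adjusted p in edgeR = 0.0003829). TWSG1, which encodes a chordin cofactor, fell by 0.24 on the log2 scale, a call lost without WT replicate 1 or 2 or labelled knockdown replicate 1 or 2 (edgeR adjusted p from 0.0732 to 0.183) and with DESeq2 (0.0646). The noggin gene NOG had 1 count in WT replicate 1 and 0 in the other libraries.

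Of 13 tested intracellular inhibitors 1 rose and 3 fell. TOB1, an antiproliferative gene whose product binds SMADs, fell from 53.8 ± 2.14 to 42.2 ± 1.06 CPM (SD over n = 3 libraries each, adjusted p in edgeR = 0.001468). The pseudoreceptor gene BAMBI, itself a BMP target, had a log2 fold change of -0.04 (from -0.16 to 0.09, 95% interval). The phosphatase gene CTDSPL and the type I receptor guardian gene FKBP1A fell, with log2 fold changes of -0.24 and -0.14, and the ubiquitin ligase gene SMURF1 rose, with one of 0.19. The CTDSPL call was lost in the fits without each WT replicate in turn and without labelled knockdown replicate 2 or 3 (edgeR adjusted p from 0.0687 to 0.139) and with DESeq2 (0.0602). The FKBP1A call was lost without WT replicate 2 or 3 or labelled knockdown replicate 2 or 3 (edgeR adjusted p from 0.0951 to 0.166), with DESeq2 (0.0582), without the low-count filter (0.0770) and with the length and GC offset (0.0638), under which the log2 fold change was -0.08. The SMURF1 call was lost in the fits without each WT replicate in turn and without labelled knockdown replicate 2 or 3 (edgeR adjusted p from 0.0536 to 0.197) and with DESeq2 (0.0553).

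Of 11 tested genes listed as other BMP targets 2 rose and 4 fell, with a median log2 fold change of -0.26. ATOH8, a helix-loop-helix transcription factor gene, fell 1.77-fold, from 52.7, 52.6 and 56.4 CPM in WT replicates 1 to 3 to 34.8, 27.5 and 29.1 CPM in labelled knockdown replicates 1 to 3 (edgeR adjusted p = 2.975e-06). DLX2, a homeobox gene, fell from 17.7, 16.5 and 18.5 CPM in WT replicates 1 to 3 to 10.7, 8.40 and 7.61 CPM in labelled knockdown replicates 1 to 3 (edgeR adjusted p = 1.326e-05). For both genes the groups did not overlap, and labelled knockdown replicate 1 was the highest of its group, as for ID1, ID2 and ID3. With the length and GC offset their log2 fold changes were -0.80 and -0.90.

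The other calls among the targets depended on the libraries used. GATA3 fell by 0.47 on the log2 scale, a call lost without WT replicate 1 or 2 or labelled knockdown replicate 2 or 3 (edgeR adjusted p from 0.0700 to 0.129) and with DESeq2 (0.127). HEY2, a repressor gene shared with the Notch pathway, rose by 0.34, a call lost without WT replicate 1 or 2 or any 1 labelled knockdown replicate (edgeR adjusted p from 0.0540 to 0.196) and with DESeq2 (0.137). The remaining 2 called targets, named here outside the rule for named genes, were TBX3, which rose by 0.23 on the log2 scale, and JUNB, which fell by 0.29. The TBX3 call was lost without WT replicate 1, 2 or 3 or labelled knockdown replicate 2 (edgeR adjusted p from 0.0685 to 0.175) and with DESeq2 (0.0865), and the JUNB call without WT replicate 2 or 3 or labelled knockdown replicate 2 or 3 (from 0.0741 to 0.162). With the length and GC offset the log2 fold change of JUNB was -0.15.

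**Figure D4:**
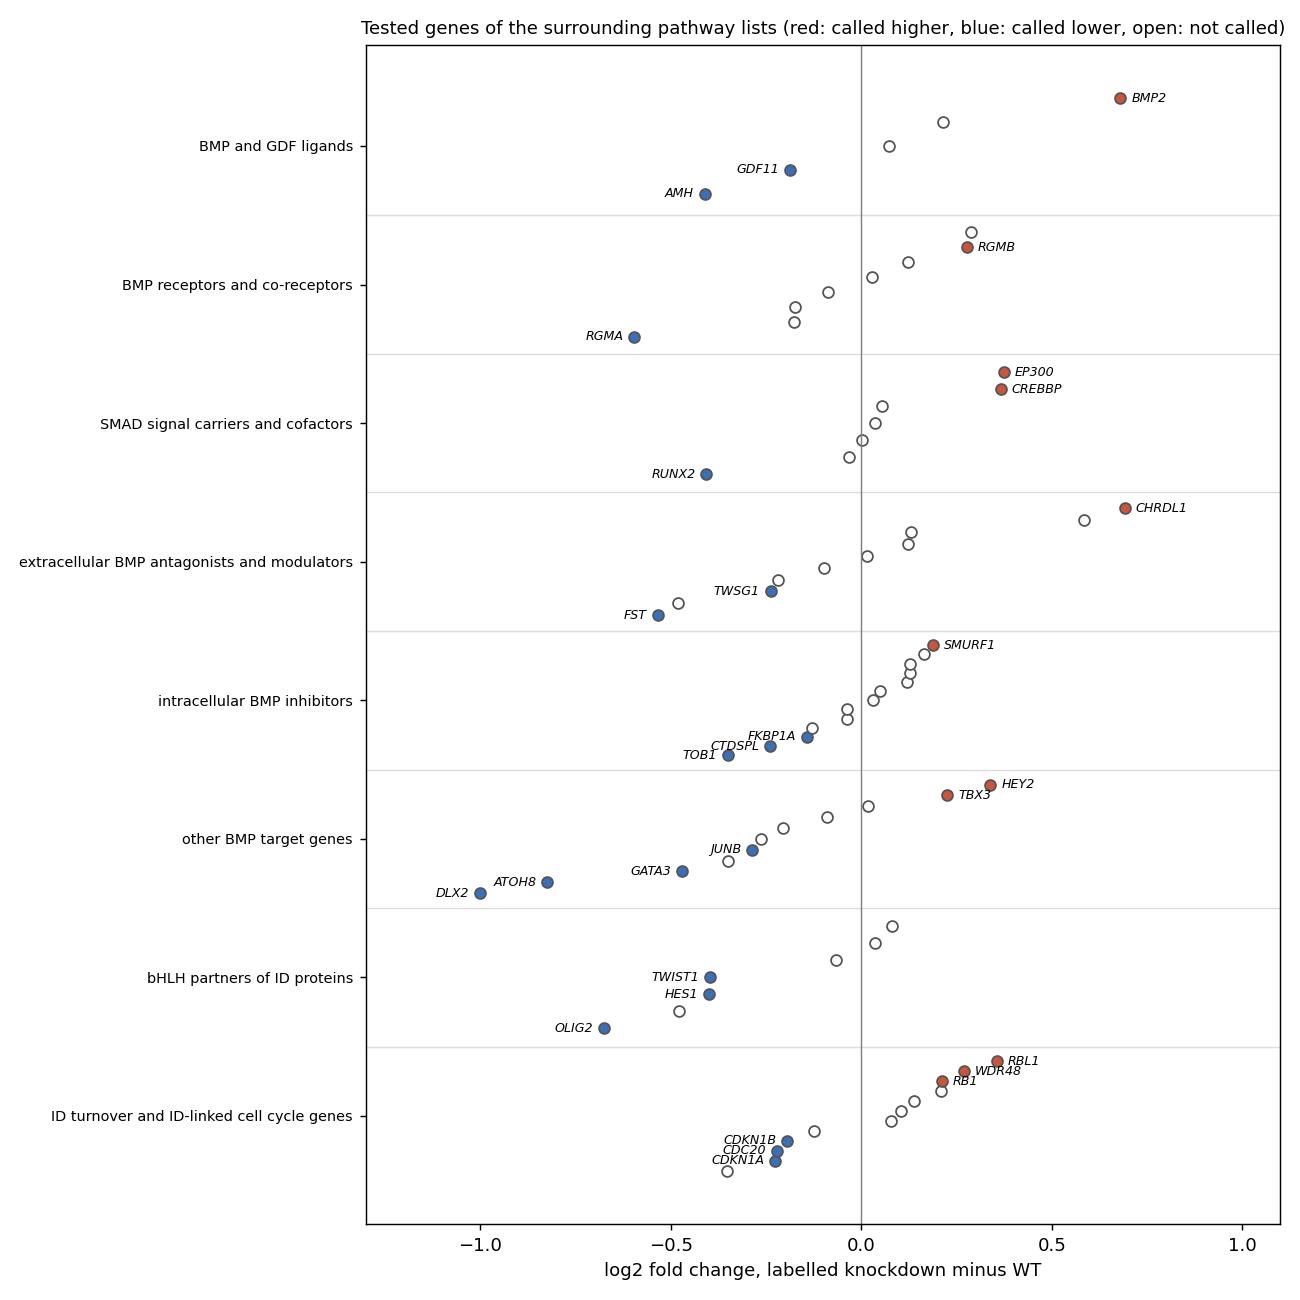
Log2 fold change, labelled knockdown minus WT, of each tested gene in the 6 BMP lists and the 2 lists of ID partners and turnover. Filled points are genes called by edgeR (red higher, blue lower), open points did not pass, and the vertical position within a list only orders the genes. DLX2 and ATOH8 lie farthest to the left, and CHRDL1 and BMP2 farthest to the right.

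The genes of the E proteins that ID proteins bind did not pass. TCF12 stood at 155.3 ± 9.24 and 164.2 ± 12.2 CPM (SD over n = 3 libraries each), with a 95% interval of the log2 fold change from -0.06 to 0.22, TCF4 had a log2 fold change of 0.04 (-0.12 to 0.19) and TCF3 one of -0.07 (-0.21 to 0.08). Of the 7 tested helix-loop-helix partner genes 0 rose and 3 fell. OLIG2, a glial lineage factor gene, fell from 7.52 ± 1.25 to 4.66 ± 0.534 CPM (SD over n = 3 libraries each, adjusted p in edgeR = 0.004818). HES1, a Notch and BMP responsive repressor gene, and TWIST1, a mesenchymal factor gene, each fell by 0.40 on the log2 scale (edgeR adjusted p = 0.001415 and 0.0009733). These 3 calls held in every fit without 1 library. With the length and GC offset the log2 fold changes of HES1 and TWIST1 were -0.31 and -0.28.

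Of 12 tested genes for ID turnover and ID-linked cell cycle control 3 rose and 3 fell. USP1, the deubiquitinase gene known for stabilising ID proteins, had a log2 fold change of 0.08 (from -0.05 to 0.21, 95% interval). Its cofactor gene WDR48 rose by 0.27 on the log2 scale, a call lost without WT replicate 2 (edgeR adjusted p = 0.0524) or 3 (0.0552) or labelled knockdown replicate 2 (0.0760). RBL1, which encodes the retinoblastoma relative p107, rose from 51.0 ± 1.43 to 65.3 ± 6.43 CPM (SD over n = 3 libraries each, adjusted p in edgeR = 0.002674). CDKN1A, the gene of the cyclin-dependent kinase inhibitor p21, which E proteins activate, and CDC20, which encodes an activator of the ubiquitin ligase APC/C, fell by 0.23 and 0.22 on the log2 scale. Both calls were lost without WT replicate 2 or 3 or labelled knockdown replicate 2 or 3 (edgeR adjusted p from 0.0558 to 0.0779 for CDKN1A and from 0.0575 to 0.0849 for CDC20), that of CDC20 also with the length and GC offset (0.0562), under which its log2 fold change was -0.10. That of CDKN1A was -0.15 with the offset. The other 2 called genes, outside the rule for named genes, were RB1, the retinoblastoma gene, which rose by 0.21 on the log2 scale, and the kinase inhibitor gene CDKN1B, which fell by 0.19. The RB1 call was lost without any 1 WT replicate and without labelled knockdown replicate 2 or 3 (edgeR adjusted p from 0.0814 to 0.227), with DESeq2 (0.0566) and with limma-voom (0.0547). The CDKN1B call was lost without any 1 WT replicate and without labelled knockdown replicate 2 (edgeR adjusted p from 0.0766 to 0.165), with DESeq2 (0.0912) and without the low-count filter (0.0776). Over both lists of ID partners 3 genes were called higher and 6 lower of 19 tested (47.4% called, where 23.3% of all tested genes were). These lists too were chosen with earlier results of these data known, so nothing is read from this share. The higher and lower calls were 1 and 3 without WT replicate 2 or WT replicate 3, 1 and 4 without labelled knockdown replicate 2, and 5 and 7 without labelled knockdown replicate 1. Over all tested genes the calls in these fits numbered 1826, 1877, 1868 and 4941, in that order, against 3330 in the main fit.

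Likeness was measured by Pearson's r of log2 CPM with ID1 over the 6 libraries, among 11835 other genes whose log2 CPM averaged at least 2. The 5 closest genes were NFKBIA, SEC13, GRB2, ZCCHC24 and EID1, with r from 0.9986 to 0.9993. NFKBIA, the gene of an inhibitor of NF-kB, went from a mean of 152.1 to 123.5 CPM. All 5 had smaller differences than ID1, with log2 fold changes from -0.30 to -0.11. For BMP4 the 5 closest were MED8, CH25H, EIF3J-DT, EXD3 and TPGS1, with r from 0.960 to 0.988 and log2 fold changes from -0.12 to -0.03. These values rest on 6 points that share the 2 groups and the library trend with length, and they are given as a description.

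Some lineage markers also differed between the groups. Of 8 tested astrocyte and glioma markers 1 rose and 3 fell, where 23.3% of all tested genes were called, with SOX2 falling by 0.66 and S100B by 0.33 on the log2 scale and NES rising by 0.27. This list too was chosen with earlier results of these data known, so nothing is read from its count. The summed level of the list was 5328 to 5648 CPM in WT and 4892 to 5259 CPM in labelled knockdown libraries. Among oligodendrocyte and neuron markers MAG rose by 0.84 and SNAP25 fell by 0.38 on the log2 scale, and RBFOX3 averaged 0.0694 and 0.0278 CPM. Of the myeloid and lymphoid markers only CD68 was tested, and it rose by 0.49. The part of these differences in the ID values was not tested.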

How the data were processed

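Per the labels' protocols, stranded libraries were made from total RNA of LN229 cells. Trim Galore, HISAT2, FastQC, MultiQC and the build hg19 are named, without roles, in the submitters' processing notes. In the sources used here, the counting program, its strand setting and its annotation are not given. Each of the 6 deposited tables held 28265 gene symbols. The authors' counts are whole reads per gene, per the file headers and values. The authors' FPKM column gave the gene lengths, and the authors' TPM column the levels per length. The counts of all 6 libraries were fitted with edgeR 4.0.16 in R 4.3.3, after filterByExpr (14315 genes left) and TMM scaling, by glmQLFit and glmQLFTest on group alone, with Benjamini-Hochberg adjusted p under 0.05 as the call. Standard errors are the log2 fold change over the square root of F. The fit was tested on simulated counts that held no library trend with length or GC content, so that run does not cover such a trend. No library was a copy of another: within groups, chi-square over its degrees of freedom was 1.95 to 8.54 per pair. Alternatives used DESeq2 1.42.0, limma 3.58.1 (voom), RLE factors, no low-count filter, each library left out, the replicate number as a block, and an offset from a smooth fit (mgcv 1.9.3) on length and GC content, which came from GENCODE v29 transcripts for 95.3% of tested genes and all 10 members. No pairing by the numbers in the titles was seen: deviations of same-numbered libraries from their group means correlated at -0.191, 0.008 and -0.217. These deviations carry each library's trend with length, so they cannot show whether same-numbered libraries shared a day or batch. The members and gene lists were chosen with earlier results of these data known. The rule for named genes took the 10 members, TRIM25, 14 pathway genes by role, up to 4 called genes per list with the largest change, and the 5 genes most like ID1 and BMP4. The counts and summed level of the oligodendrocyte and neuron marker list are not reported here.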

Additional observations from a re-analysis of the deposited data

How the results depend on the processing

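ID1 to ID4 were lower in labelled knockdown under all 13 alternatives. The log2 fold change of BMP4 went from -0.11 to 0.013 without labelled knockdown replicate 3. That of BMPR1A went from -0.06 to 0.014 without labelled knockdown replicate 1. Both shifts were smaller than the spread of the gene's replicates, and no other gene of the 10 changed sign. Over the fits without 1 library the log2 fold change of ID1 ranged from -0.74 to -0.57, that of ID2 from -1.14 to -1.02, that of ID3 from -0.98 to -0.73 and that of BMPR2 from 0.26 to 0.43. With DESeq2, 5 other BMP genes were called higher and 8 lower, where 1345 and 1079 were over all genes. With the length and GC offset 13 other BMP genes were called higher and 12 lower, where 2592 and 2052 were over all genes. In the same fit 5 ID partner and turnover genes were called higher and 5 lower. With the replicate block, for which no label states a shared day or batch, 1891 genes were called in all (967 higher, 924 lower). In that fit 5 BMP genes were called higher and 6 lower, and 1 ID partner gene higher and 3 lower. Of the calls named above as lost without 1 library, all but that of RGMB were also lost with the block. Their edgeR adjusted p ran from 0.0529 for WDR48 to 0.16 for FKBP1A. With the offset added to the block, the calls of AMH, CDC20, FKBP1A and GATA3 were lost (edgeR adjusted p from 0.0537 to 0.15). The calls numbered 4644 with the length and GC offset alone and 3950 with the block added to it, against 3330 with neither. Without 1 library the calls ranged from 1826 (without WT replicate 2) to 4941 (without labelled knockdown replicate 1), with 930 to 2622 higher and 866 to 2319 lower. The BMP calls ranged from 4 to 10 higher and from 6 to 16 lower, and the ID partner calls from 1 to 5 higher and from 3 to 7 lower. The cause was not tested. The low counts of SMAD6, SMAD9 and BMP4 limit what could be detected for them.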
